A study of Mus musculus with 12 samples.

Results

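The insulin and insulin-like growth factor (IGF) signalling genes were followed in differentiating mouse embryonic stem cells: the ligand Igf1, the receptors Insr and Igf1r, the receptor substrates Irs1, Irs2 and Irs4, and the binding proteins Igfbp2, Igfbp3, Igfbp4 and Igfbp5. These 10 genes were chosen from intensities seen in an earlier look at the same 12 arrays, so their levels and differences are a description and carry no test. All 27 probe sets that the platform annotation assigns to 1 of them alone were taken, out of 45101 on the array, which name 18193 genes. HM1 is a male embryonic stem cell line without a working Hprt gene, and CAG150 cells carry expanded CAG repeats per the series title; as far as the study is known, the repeat is in Htt, which is mutated in Huntington's disease. Both lines were put through neuronal differentiation without further treatment named in the labels, and 3 arrays were made of each line at day 4 and at day 6. Each kind of cell is represented by 1 line. Nothing in the labels tells if samples within a group came from separate cultures, so every error and p-value covers the spread among these arrays alone, which may be technical.

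Insulin and IGF1 bind the tyrosine kinases encoded by Insr and Igf1r, which phosphorylate the Irs scaffolds. These recruit PI3 kinase and so activate Akt and mTOR and hold Foxo transcription factors out of the nucleus. The IGF binding proteins are secreted, hold IGFs outside the cell and either limit or prolong their action, and proteases of the Pappa family release the ligand again. In the developing nervous system the pathway is known for supporting growth and survival of neural progenitors.

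The Irs genes encode related scaffolds, and Igfbp2 had the widest range of group means, so the 250 bases before their annotated starts are shown in the RefSeq reference sequence (build GRCm38.p6, 5′ to 3′). This is the reference mouse strain and was not read from these cells. RefSeq windows were matched for 9 of the 10 members, and the 50 bases after each start were left out. In the 3 Irs windows capitals mark CACGTG, an E-box that basic helix-loop-helix factors can bind, and the letters TGTTTTG on either strand. In the Igfbp2 window they mark CACGTG and the GC box GGGCGG on either strand, which factors of the Sp family can bind.
Irs1 (chr1:82291440-82291689, minus strand): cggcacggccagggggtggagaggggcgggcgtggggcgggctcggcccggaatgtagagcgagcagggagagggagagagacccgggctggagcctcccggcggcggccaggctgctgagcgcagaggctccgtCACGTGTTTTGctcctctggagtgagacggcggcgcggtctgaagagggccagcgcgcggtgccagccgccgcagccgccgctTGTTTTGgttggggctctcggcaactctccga
Irs2 (chr8:11008930-11009179, minus strand): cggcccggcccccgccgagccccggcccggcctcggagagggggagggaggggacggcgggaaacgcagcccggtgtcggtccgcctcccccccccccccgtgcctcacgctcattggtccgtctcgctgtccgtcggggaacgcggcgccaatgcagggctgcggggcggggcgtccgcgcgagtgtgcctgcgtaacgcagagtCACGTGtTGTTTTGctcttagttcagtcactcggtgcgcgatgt
Irs4 (chrX:141725218-141725467, minus strand): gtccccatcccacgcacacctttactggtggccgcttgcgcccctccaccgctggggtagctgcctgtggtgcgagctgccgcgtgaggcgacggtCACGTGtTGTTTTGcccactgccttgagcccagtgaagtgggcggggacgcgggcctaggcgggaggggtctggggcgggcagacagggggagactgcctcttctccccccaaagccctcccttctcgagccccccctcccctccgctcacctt
Igfbp2 (chr1:72824230-72824479, plus strand): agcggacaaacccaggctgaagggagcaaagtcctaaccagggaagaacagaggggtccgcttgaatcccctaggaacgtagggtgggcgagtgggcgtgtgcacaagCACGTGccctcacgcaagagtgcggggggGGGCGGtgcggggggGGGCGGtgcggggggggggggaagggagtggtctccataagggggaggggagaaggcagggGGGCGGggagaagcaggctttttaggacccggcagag
All 3 Irs windows held both CACGTG and TGTTTTG. Among the 32851 windows of the table, some genes having several starts, 6.02% held CACGTG, 5.56% held TGTTTTG and 0.295% held both. The E-box began 115 bases before the start in Irs1, 44 in Irs2 and 154 in Irs4. In Irs1 a TGTTTTG overlapped the last letters of the E-box, and in Irs2 and Irs4 it followed 1 base later. The longest run shared by Irs2 and Irs4 was GTCACGTGTTGTTTTGC, 17 bases that occurred in 2 of all windows, and the longest run shared by all 3 was GTCACGTGTT, 10 bases that occurred in 23. The E-box of Igfbp2 began 142 bases before its start, and 3 GC boxes lay in that window. A GC box was also found in Irs1, Irs2, Irs4 and Igf1r and in 32.7% of all windows, and TATAAA, the TATA box, in Igfbp4 and 12.4% of all windows. These motifs were chosen after the windows had been read, and a match is a description of letters, not of binding. The levels of the Irs genes, given below, did not move alike.

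Intensities below are linear values of a gene's brightest probe set, given for replicates 1, 2 and 3 in turn and then as mean ± SD of 3 arrays. A difference is one of log2(intensity + 16), given ± SE from a linear model of all 12 arrays, and folds follow from it, so folds of dim genes are compressed. Levels of different genes cannot be set against each other, since each probe set has its own brightness. Median intensities of the arrays ranged from 19.2 to 25.9. Of the 10 members, 9 lay above the filter on low signal, an intensity of 11.9, and were among the 12280 genes tested. Chromosomes 8 and 11 stood apart: the median log2 difference of CAG150 from HM1 was 0.20 (day 4) and 0.24 (day 6) for genes on the first and 0.17 and 0.23 for genes on the second, against -0.064 to 0.0034 for each of the other 17 autosomes. The 3 genes tested on chromosome Y had medians of -2.06 and -1.34, and no member lies there. Insr and Irs2 lie on chromosome 8 and Igfbp3 and Igfbp4 on chromosome 11, so their chromosome's shift is set beside their values. The 11 neuronal markers had a higher summed intensity at day 6, when it ranged from 11432 to 12682 in HM1 and from 16400.0 to 17372 in CAG150, than at day 4, with 3871 to 4134 and 2773 to 3138. The lower sum of CAG150 at day 4 rested on Stmn2, with means of 2108 in HM1 and 607 in CAG150. It was the 1 marker of the 11 called lower there, while 5 were called higher.

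**Figure D1:**
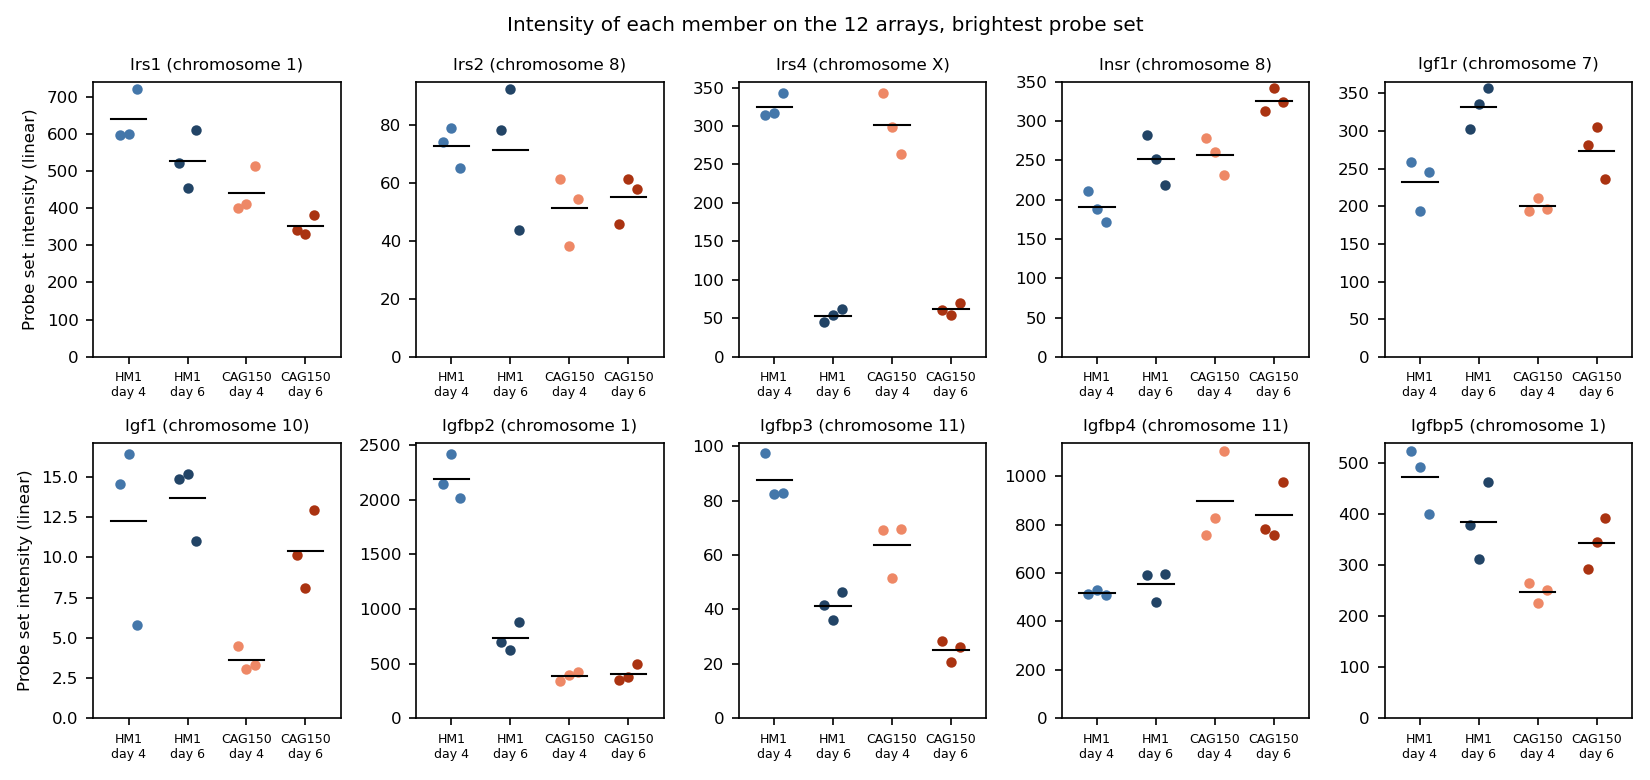
Linear intensity of the brightest probe set of each of the 10 members (vertical axes from 0) on the 3 arrays of each line at each day; points are arrays and bars are group means. Igfbp2 stands at 2013 to 2415 in HM1 at day 4 and at most at 882 in the other groups, Irs4 is high at day 4 and low at day 6 in both lines, and Igfbp4 is higher in CAG150.

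Among the receptors, Insr, the insulin receptor, was higher in CAG150 and higher at day 6. It measured 212, 189 and 172 in HM1 at day 4 (191 ± 19.9) and 278, 261 and 231 in CAG150 (257 ± 23.5). On day 6 the readings were 283, 252 and 219 in HM1 (251 ± 31.7) and 312, 342 and 324 in CAG150 (326 ± 14.9). The lines did not overlap at either day, nor the days in either line. The line differences were 0.40 ± 0.11 at day 4 and 0.36 ± 0.11 at day 6. Less the median of chromosome 8 they were 0.21 and 0.12. The day differences were 0.37 ± 0.11 in HM1 and 0.33 ± 0.11 in CAG150. The other probe sets of Insr were below the filter in mean signal, and with the mean of all of them the line differences were 0.08 at day 4 and 0.21 at day 6, and the day differences 0.12 in HM1 and 0.24 in CAG150.

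Igf1r, the receptor that IGF1 and IGF2 share, was higher at day 6 than at day 4 by its brightest probe set. It measured 259, 193 and 246 in HM1 at day 4 (233 ± 34.9) and 303, 336 and 358 at day 6 (332 ± 27.5), a difference of 0.49 ± 0.12. In CAG150 it measured 194, 211 and 196 at day 4 (200 ± 9.41) and 281, 305 and 236 at day 6 (274 ± 35.2), a difference of 0.42 ± 0.12. By this set the days did not overlap in either line, whereas the lines overlapped at both days (differences of -0.19 ± 0.12 and -0.27 ± 0.12). The probe sets disagreed on the size of the day difference. The next brightest gave 0.15 in HM1 and 0.39 in CAG150, the third gave 0.06 and 0.09, and the fourth, a dim one, gave 0.61 and -0.09. The fifth lay below the filter. With the mean of the probe sets the day differences were 0.28 and 0.19. The line difference also depended on the probe set. At day 4 the next brightest gave -0.30, the third -0.18 and the fourth 0.35, and the lines were apart in each. At day 6 they gave -0.05, -0.16 and -0.34, and the lines were apart in the fourth alone.

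Igf1, the ligand, was near background throughout. Its brightest probe set read 14.6, 16.4 and 5.82 in HM1 at day 4 (12.3 ± 5.68) and 4.52, 3.08 and 3.32 in CAG150 at day 4 (3.64 ± 0.77). The day 6 readings were 14.9, 15.2 and 11.03 in HM1 (13.7 ± 2.31) and 10.1, 8.09 and 12.96 in CAG150 (10.4 ± 2.45). All 4 of its probe sets had mean signals below the filter, so no fold is given, and a low reading does not show that the gene was silent. The CAG150 readings at day 4 were below every HM1 reading of that day, at a level where readings carry little information.

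The receptor substrates each had a pattern of their own. Irs1, the widely expressed scaffold, was lower in CAG150. It measured 598, 601 and 721 in HM1 (639.9 ± 70.3) and 399, 412 and 514.5 in CAG150 (442 ± 63.2) at day 4. The day 6 arrays gave 521, 454 and 609.9 in HM1 (528 ± 78.2) and 342, 329.9 and 380.4 in CAG150 (351 ± 26.4). The lines did not overlap at either day, with differences of -0.52 ± 0.13 and -0.56 ± 0.13, which is 1.44-fold and 1.48-fold lower. From day 4 to day 6 it differed by -0.27 ± 0.13 in HM1, where the days overlapped, and by -0.31 ± 0.13 in CAG150, where they did not.

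Irs2, the scaffold with a large part in liver and pancreatic islets and in brain growth, varied most between arrays. It measured 74.0, 79.1 and 65.05 in HM1 and 61.3, 38.1 and 54.6 in CAG150 at day 4 (72.7 ± 7.10 and 51.3 ± 11.95). For day 6 the values were 78.1, 92.3 and 43.7 in HM1 and 45.9, 61.3 and 57.8 in CAG150 (71.4 ± 25.0 and 55.0 ± 8.05). The lines were narrowly apart at day 4 and overlapped at day 6. The differences, -0.41 ± 0.20 and -0.26 ± 0.20, were opposite in sign to the shift of chromosome 8, on which it lies, and were -0.61 and -0.50 less that shift. The day 6 difference rested on single arrays: it was -0.08 without HM1 replicate 2 and -0.51 without HM1 replicate 3 of that day.

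Irs4, an X-linked substrate with a narrow tissue range, had the largest day difference of the members tested in both lines. In HM1 it went from 314, 317.5 and 343 at day 4 (325 ± 15.7) to 44.8, 54.1 and 61.9 at day 6 (53.6 ± 8.55). In CAG150 it went from 343, 298 and 263 (301 ± 39.95) to 61.3, 53.9 and 70.0 (61.7 ± 8.07). Every day 4 array was thus above every day 6 array, whereas the lines overlapped at both days. The day differences were -2.30 ± 0.12 in HM1, 4.92-fold, and -2.03 ± 0.12 in CAG150, 4.08-fold. Line differences were -0.11 ± 0.12 at day 4 and 0.16 ± 0.12 at day 6. A second probe set, with group means of 8.12 to 30.3, was also lower at day 6, with differences of -0.53 and -0.80, and the mean of both sets gave -1.42 in either line. With pseudocounts of 1 and 64 in place of 16 the brightest set gave -2.59 and -1.73 in HM1 and -2.27 and -1.54 in CAG150.

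Igfbp2, the binding protein abundant in fetal tissue and brain, separated the lines most. At day 4 it measured 2142, 2415 and 2013 in HM1 (2189.7 ± 205) and 344, 394 and 422 in CAG150 (386.5 ± 39.1). The day 6 values were 701, 623 and 882 in HM1 (736 ± 133) and 353, 378 and 498 in CAG150 (409.6 ± 77.6). The lines were apart at both days, by -2.45 ± 0.15 or 5.48-fold at day 4 and by -0.82 ± 0.15 or 1.77-fold at day 6. In HM1 the days were apart as well (-1.56 ± 0.15, 2.96-fold), whereas in CAG150 they overlapped (0.07 ± 0.15). The difference between the day differences was 1.63 ± 0.21. The order of the groups was HM1 at day 4, then HM1 at day 6, then CAG150 at day 6 and day 4, and the last pair did not differ beyond its spread. The gene has 1 probe set of its own on the array.

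Igfbp5, a binding protein that adheres to the extracellular matrix, is the next protein-coding gene to Igfbp2 on chromosome 1. It measured 525, 492 and 401 in HM1 (473 ± 64.4) and 265, 226 and 252 in CAG150 (248 ± 19.6) at day 4. The arrays of day 6 gave 378, 313 and 464 in HM1 (385 ± 75.6) and 294, 346 and 393 in CAG150 (344 ± 49.7). The lines were apart at day 4 (-0.88 ± 0.15, 1.84-fold lower in CAG150) and overlapped at day 6 (-0.15 ± 0.15). The days overlapped in HM1 (-0.29 ± 0.15) and were apart in CAG150, where day 6 was higher (0.44 ± 0.15). A dimmer second probe set gave line differences of -0.27 at day 4 and 0.33 at day 6, so the sign at day 6 depends on the probe set. The mean of both sets gave -0.58 at day 4 and 0.09 at day 6. The second set alone gave a day difference of 0.54 in CAG150. Over all 12 arrays Igfbp5 and Igfbp2 correlated with r = 0.81, a description over arrays that share their group.

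Igfbp3, the main carrier of IGFs in blood, was lower at day 6 and lower in CAG150. At day 4 it measured 97.3, 82.5 and 82.8 in HM1 (87.5 ± 8.49) and 69.3, 51.6 and 69.7 in CAG150 (63.5 ± 10.3). At day 6 it measured 41.5, 36.2 and 46.5 in HM1 (41.4 ± 5.17) and 28.3, 20.8 and 26.4 in CAG150 (25.2 ± 3.91). None of the 4 groups overlapped, and their order was HM1 at day 4, CAG150 at day 4, HM1 at day 6 and CAG150 at day 6. The day differences were -0.85 ± 0.12 in HM1 and -0.95 ± 0.12 in CAG150. The line differences were -0.39 ± 0.12 at day 4 and -0.48 ± 0.12 at day 6, opposite to the upward shift of chromosome 11, and -0.56 and -0.71 less that shift. With pseudocounts of 1 and 64 the line difference at day 6 was -0.70 and -0.24. A second probe set of nearly the same brightness gave -0.54 and -0.58 between lines and -0.91 and -0.95 between days. Its neighbour Igfbp1, another binding protein, had group means of 0.59 to 2.17 and was below the filter.

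Igfbp4, a binding protein that blocks IGF action until Pappa cleaves it, was the binding protein that was higher in CAG150. At day 4 it measured 515, 529 and 509.6 in HM1 (518 ± 9.78) and 756, 828 and 1106 in CAG150 (896 ± 185). By day 6 it measured 593, 481 and 596 in HM1 (557 ± 65.3) and 782, 756 and 976 in CAG150 (838 ± 120.2). The lines were apart at both days, by 0.76 ± 0.14 and 0.57 ± 0.14, and the days overlapped within each line. Less the median of chromosome 11 the line differences were 0.58 and 0.35. Of its 6 probe sets, all above the filter, all were higher in CAG150 at day 4, by 0.37 to 0.90, and 5 were at day 6, by 0.39 to 0.61. The dimmest gave -0.10 at day 6. Several of these probe sets overlap in what they measure and are not separate evidence.

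**Figure D2:**
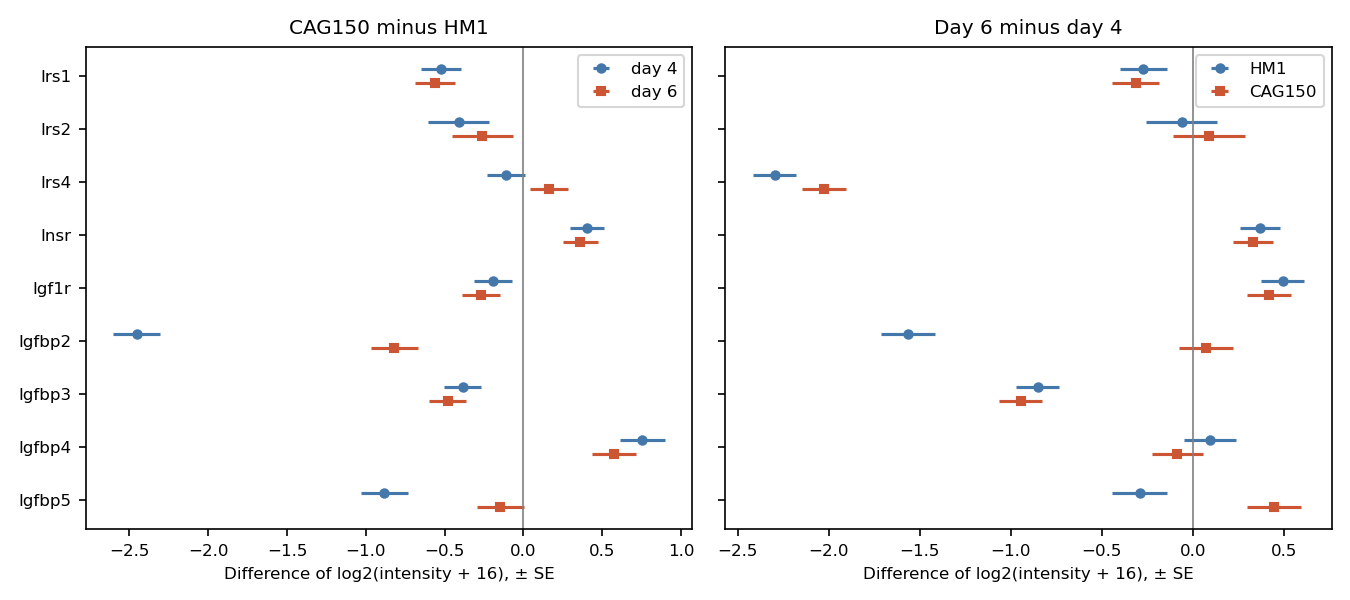
Differences of log2(intensity + 16) ± SE (horizontal axes) for the 9 members above the filter, CAG150 minus HM1 at both days on the left and day 6 minus day 4 in both lines on the right. Igfbp2 lies at -2.45 at day 4 against -0.82 at day 6, and Irs4 lies at -2.30 and -2.03 between days.

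**Figure D3:**
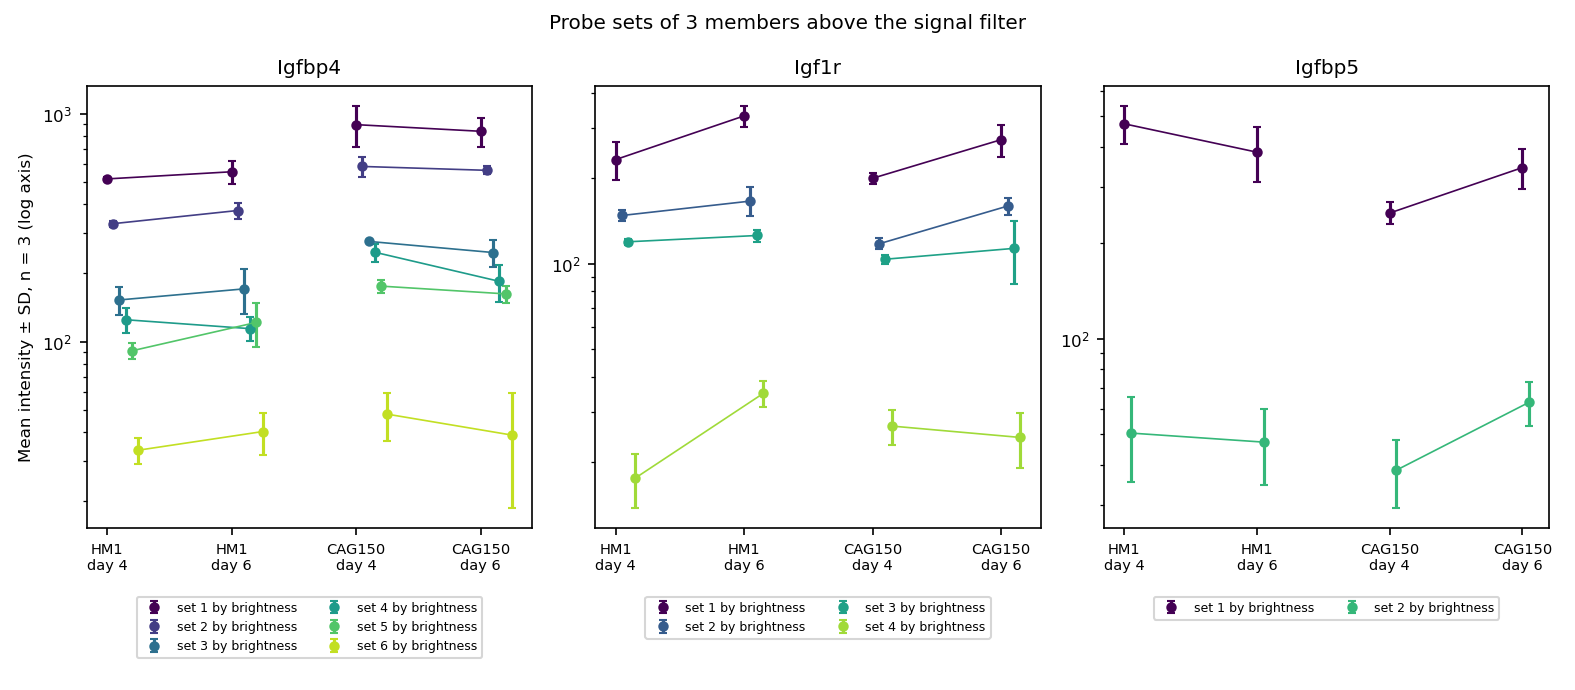
Mean intensity ± SD of 3 arrays (log axis) for the probe sets of Igfbp4, Igf1r and Igfbp5 above the filter, numbered from the brightest and joined between days of a line. The 5 brighter sets of Igfbp4 are higher in CAG150 at both days, while the sets of Igf1r differ between days by 0.06 to 0.61 in HM1.

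Counted over the 9 members tested, 2 were called higher in CAG150 and 4 lower at day 4, where 7.87% and 7.92% of all genes tested were, with a call at an adjusted p under 0.05. At day 6 the counts were 2 and 3, against 10.1% and 11.2% of all genes. From day 4 to day 6 in HM1, 2 were called higher and 3 lower, against 20.4% and 18.5%, and in CAG150 3 and 2, against 22.5% and 21.9%. In the interaction, the difference between the day differences, 1 was called higher, Igfbp2, and 0 lower, against 1.58% and 2.03%. The members were picked with these values in view, so nothing is read from these counts. The count at day 4 was 3 without HM1 replicate 3, CAG150 replicate 1 or CAG150 replicate 2 of that day. The count at day 6 was 3 without CAG150 replicate 3 or HM1 replicate 2 of that day. The count for CAG150 between days was 3 without replicate 2 or 3 of day 4 or replicate 3 of day 6, and 2 without replicate 2 of day 6. The interaction count was 2 without HM1 replicate 3 of day 6. With arrays centred on their medians 1 member was called higher and 3 lower between days in CAG150, Insr and Igfbp5 no longer being called and Irs1 being called lower.

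Marker genes of several cell types differed between the lines as well, and these counts stand beside the 7.87% of all genes called higher and 7.92% called lower at day 4, and 10.1% and 11.2% at day 6. Of 10 pluripotency markers 6 were lower in CAG150 than in HM1 at either day, and the summed intensity of the 10 was 4143 to 4179.9 in HM1 and 2646 to 2782 in CAG150 at day 4, and 5283 to 5357 and 3731 to 3835 at day 6. Sox2 made up most of these sums, with means of 2521 in HM1 and 2163 in CAG150 at day 4. It was called between the lines at neither day (limma adjusted p of 0.065 and 0.48). Of 7 fibroblast and smooth muscle markers tested 4 were lower in CAG150 at either day, with sums over all 10 markers listed of 2984 to 3542 against 439.8 to 513 at day 4 and 4541 to 5488 against 265 to 306 at day 6. Acta2 and Tagln, of smooth muscle, made up most of these sums, with means of 1608 and 1382 in HM1 and 249 and 63.9 in CAG150 at day 4. Cnn1, also of smooth muscle, was lower in CAG150 at both days, Thy1 at day 4 and the collagen gene Col3a1 at day 6. The fibroblast collagens Col1a1 and Col1a2 were called at neither day (0.22 and 0.20 at day 4, limma adjusted p of 0.23 and 0.28, and -0.24 and -0.27 at day 6, adjusted p of 0.18 and 0.12), and Lum, a fibroblast matrix gene, had group means of 4.07 to 8.39. Of 10 endoderm markers tested 5 were lower in CAG150 at day 4 and 7 at day 6, with sums over 12 of 2867 to 3013 against 1405 to 1498 and of 3883.5 to 4028 against 1544 to 1668. Sparc, Apoe and Col4a1 made up most of these sums, with means of 1421, 633 and 482 in HM1 at day 4. Foxa2 was lower at both days and Sox17 at day 6. Gata4 and Gata6 were called at neither day (adjusted p of 0.45 and 0.94 at day 4, and 0.88 and 0.30 at day 6). Afp and Ttr were below the filter. Of the 11 neuronal markers 5 were called higher in CAG150 and 1 lower at day 4, and 9 higher and 0 lower at day 6. Among those called higher, some lie on the chromosomes shifted upward in CAG150. These were Mapt (0.50 at day 4 and 1.15 at day 6) and Rbfox3 (1.57 and 0.69) on chromosome 11. Tubb3, called at day 6 alone (0.58), lies on chromosome 8. Of 8 neural progenitor markers 3 were higher and 0 lower at day 4, and 0 and 1 at day 6. Of 4 mesoderm markers tested 1 was lower at either day, and of 3 glial markers 0 were called at day 4 and 1 was higher at day 6. In HM1 the sums of the pluripotency, the fibroblast and smooth muscle, and the endoderm markers were all higher at day 6 than at day 4. The part of these cells in the values of Igfbp2, Igfbp5, Irs1 and Igfbp3 was not tested, and in such mixed samples fewer cells of a type and less RNA per cell cannot be told apart.

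The genes whose pattern over the 12 arrays was most like that of the members with the widest range are given as a description. For Igfbp2 these were Car10, Fgfbp1 and Tmcc3, with Pearson's r of 0.98, 0.98 and 0.97. For Irs4 they were Bok, Frem2 and Jade2, with r of 0.99 for each. For Igfbp3 they were Pknox2, Tjp1 and Ezr, each with r of 0.98. None of these lies on the chromosome of the member it resembles, and arrays of a group share their condition, which sets much of such an r.

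Other genes of the pathway came from a list of 73, of which 67 had a probe set and 61 were tested. At day 4, 4 were higher and 7 lower in CAG150, where 7.87% and 7.92% of all genes tested were, with a median log2 difference of -0.01 against 0.0051 over all genes. At day 6, 4 were higher and 11 lower, against 10.1% and 11.2% (median -0.03 against -0.0019). From day 4 to day 6, 13 rose and 13 fell in HM1, against 20.4% and 18.5% (median 0.04 against -0.0042). In CAG150 16 rose and 17 fell, against 22.5% and 21.9% (median -0.04 against 0.00027). These splits depended on the scaling. Centring each array on its median moved every gene's difference by -0.06 between lines at either day and by -0.10 between days in either line. It gave 1 higher and 8 lower at day 4, 2 and 12 at day 6, 8 and 17 between days in HM1, and 10 and 20 in CAG150. The count at day 4 was sensitive to single arrays: of 11 genes, 7 were called without HM1 replicate 1 or 3 or CAG150 replicate 1 or 3 of that day, and 6 without CAG150 replicate 2. It was 6 with each difference taken less the median of its chromosome.

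Ligands and extracellular partners came first in that list. Igf2, the fetal growth ligand, was lower in CAG150 at day 6, at 144, 115 and 154 against 206, 182 and 242 in HM1 (-0.56 ± 0.15, limma adjusted p = 0.020), and the lines did not overlap there. The day 4 means, 165 ± 22.7 for HM1 against 139.6 ± 26.2 for CAG150, were not called apart (adjusted p = 0.35). A second probe set of Igf2 was below the filter, with group means of 0.83 to 3.89. Ins2, an insulin gene, had group means of 2.68 to 6.47 and was below the filter, and Ins1 had no probe set of its own in the annotation. Igf2r, which clears IGF2, was called in no comparison (adjusted p of 0.99 and 0.30 between lines). Pappa2, a protease that cleaves Igfbp5 and Igfbp3, rose between days in both lines and was higher in CAG150 at day 6, at 42.2 ± 3.35 against 20.1 ± 1.02 (0.69 ± 0.11, adjusted p = 0.0010). Its day 4 means, 7.47 in HM1 and 9.08 in CAG150, were below the filter. It was thus tested through its day 6 signal, highest in CAG150, and its calls are not independent of that filter. Its line difference at day 6 ranged from 0.34 to 1.03 over the settings tried. Stc2, an inhibitor of such proteases, fell between days by 0.50 in HM1 and 0.96 in CAG150 on the log2 scale (adjusted p of 0.0095 and 8e-05).

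At the receptors, Grb10, an imprinted adaptor that restrains both receptors, had the largest line difference of the list. It measured 1628 ± 111 in HM1 and 344 ± 80.2 in CAG150 at day 4 (-2.21 ± 0.13, 4.63-fold, adjusted p = 2.8e-07). At day 6 it measured 1698 ± 104 and 268 ± 12.1 (-2.59 ± 0.13, 6.03-fold, adjusted p = 5e-08). It lies on chromosome 11, whose median moved the other way, and all 3 of its probe sets above the filter were lower in CAG150 at both days. Shc1, the adaptor to the Ras pathway, was lower in CAG150 than in HM1 at both days (-0.59, adjusted p = 0.0075, and -0.50, adjusted p = 0.014) and fell between days in both lines. The call at day 6 was lost without HM1 replicate 1 of that day (adjusted p = 0.060), and at day 4 with the mean of its probe sets (adjusted p = 0.056). Socs2, a feedback inhibitor of growth hormone signalling, fell between days by 0.59 in HM1 and 0.61 in CAG150 on the log2 scale (adjusted p of 0.00042 and 0.00025). With the mean of its probe sets, some of them dim, the call in CAG150 was lost (adjusted p = 0.068).

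Downstream, 3 of 7 PI3 kinase and lipid phosphatase genes tested rose between days in either line and 0 fell, with medians of -0.015 in HM1 and 0.067 in CAG150. Of 6 genes of Akt, its kinases and its phosphatases, 3 rose and 1 fell in HM1, and 4 rose and 1 fell in CAG150. Of all genes tested, 20.4% rose and 18.5% fell in HM1, and 22.5% rose and 21.9% fell in CAG150. Nothing is read from counts over so few genes. Pik3r3, a regulatory subunit of PI3 kinase, rose from 263 ± 14.7 to 692 ± 29.9 in HM1 (1.34 ± 0.11, adjusted p = 1.4e-06) and from 289 ± 35.7 to 864 ± 119 in CAG150 (1.53 ± 0.11, adjusted p = 3.5e-07). Pik3ca, a catalytic subunit, rose by 0.55 and 0.92, Akt1 by 0.68 and 0.64, and Gsk3b, a kinase that Akt inhibits, by 0.52 and 0.68, in HM1 and CAG150 in turn, with adjusted p of 0.0054 or less. Bad, a cell death regulator that Akt phosphorylates, rose by 0.40 in HM1 (adjusted p = 0.0057) and 0.65 in CAG150 (adjusted p = 0.00016). Phlpp2, a phosphatase that acts on Akt, rose between days (0.70 and 0.60) and was higher in CAG150 at day 4 (0.66 ± 0.12, adjusted p = 0.0024) and day 6 (0.56 ± 0.12, adjusted p = 0.0048). It lies on chromosome 8, and less that chromosome's median the day 6 difference was 0.32 and no longer called (adjusted p = 0.083). With the mean of its probe sets it was 0.21 (adjusted p = 0.14).

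Foxo1, a transcription factor that insulin signalling keeps out of the nucleus, was lower in CAG150 than in HM1 at both days. At day 4 it measured 179, 182 and 179 in HM1 and 70.4, 71.9 and 83.0 in CAG150 (-1.11 ± 0.11, 2.16-fold, adjusted p = 1.8e-05). The lines were also apart at day 6, by a smaller difference (-0.82 ± 0.11, adjusted p = 0.00015). All 3 of its probe sets above the filter were lower in CAG150 at both days. Between days Foxo1 fell in HM1 (-0.43, adjusted p = 0.0065) and was not called in CAG150 (-0.14, adjusted p = 0.32). Trib3, a stress-induced inhibitor of Akt, was lower in CAG150 than in HM1 at day 6 (-0.74 ± 0.17, adjusted p = 0.0078) and fell between days in both lines (-0.58 and -1.35). The call in HM1 was lost without replicate 3 of day 4 (adjusted p = 0.072) or replicate 2 of day 6 (adjusted p = 0.064). Ddit4, an inhibitor of mTOR signalling, fell between days by 0.71 in HM1 and 0.73 in CAG150 on the log2 scale (adjusted p of 6e-04 and 0.00035). It was also called lower in CAG150 than in HM1 at day 4 (-0.39, adjusted p = 0.047) and day 6 (-0.41, adjusted p = 0.029). These line calls were fragile: 9 of 21 other settings kept the one at day 4 and 15 the one at day 6.

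The glucose transporters Slc2a1 and Slc2a3 and the translation repressor Eif4ebp1, a target of mTOR, fell between days in both lines and were lower in CAG150 at day 6. Eif4ebp1 measured 3031 ± 341 and 2774 ± 176 in HM1 and CAG150 at day 4 (adjusted p = 0.44) and 1876 ± 157 and 894 ± 27.2 at day 6 (-1.05 ± 0.10, adjusted p = 1.1e-05), although it lies on chromosome 8. Slc2a3 was lower in CAG150 at day 4 as well (-0.71 ± 0.12, adjusted p = 0.0013) and by 2.75-fold at day 6 (-1.46 ± 0.12, adjusted p = 3e-06). Slc2a1, the widely expressed transporter, was 5860 ± 421 and 6017 ± 251 at day 4 (adjusted p = 0.78) and 3336 ± 84.2 and 2158 ± 52.2 at day 6 (-0.62 ± 0.08, adjusted p = 0.00013). These 3 genes were the ones of the list called in the interaction, 3 lower and 0 higher, where the list's median was 0.03 and that of all genes -0.0075. The interaction call of Slc2a3 (adjusted p = 0.028) was lost without any of 8 single arrays. It was also lost with no filter, with the mean of probe sets and with the replicate number as a block. The adjusted p was 0.054 to 0.070 in these settings.

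**Figure D4:**
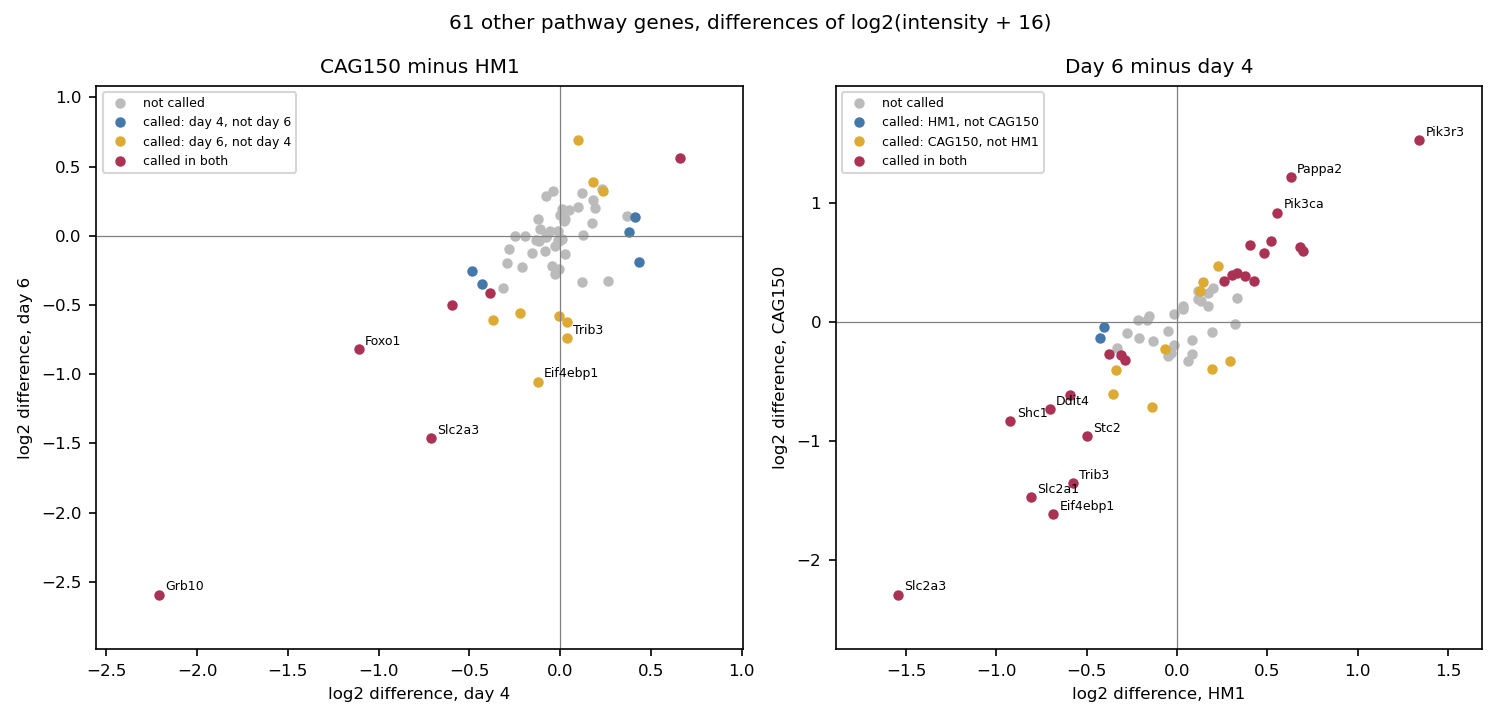
Differences of log2(intensity + 16) for the 61 other pathway genes, CAG150 minus HM1 at day 4 against day 6 on the left and day 6 minus day 4 in HM1 against CAG150 on the right; colours show where a gene was called, and the axes of a panel share arrays. Grb10 lies at -2.21 and -2.59 on the left, and Slc2a3 and Pik3r3 end the range on the right.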

How the data were processed

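The authors deposited linear probe set intensities from Affymetrix mouse arrays, scaled on each array to a mean of 150 once 2% of probe sets at either end are trimmed, as read from the values. The sources used here do not name the software. Groups come from the sample titles; the descriptions give day 4 for HM1 at day 6, and 1 replicate number for all day 6 samples. The 64 control probe sets were left out. Of the others, 34945 had 1 gene symbol in the platform annotation, 932 several and 9160 none here. Symbols were checked by Entrez identifier against a GRCm38.p6 gene table, which changed 0 and gave chromosomes and neighbours.

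Intensities were taken as log2(intensity + 16). A gene's probe set with the highest mean was used, and a gene was tested if that mean passed the 40th percentile over probe sets. limma 3.58.1 in R 4.3.3 fitted 1 mean per group (8 residual degrees of freedom), with Benjamini-Hochberg adjustment over all genes tested in each of 5 comparisons and a threshold of 0.05. The script was tested on simulated data. The number of arrays limits the precision.

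The members and lists were chosen with earlier results of these data known. All members are named. Other pathway genes are named where called with a log2 difference of at least 0.5, at most 6 in each direction per comparison, with Igf2, Ins1, Ins2, Igf2r and Igfbp1 in any case. Gene likeness was taken for the 3 members with the widest range of group means. The settings tried besides were median centring, quantile normalization, a 60th percentile filter or none, pseudocounts of 1 and 64, a gene's mean over probe sets, a replicate block, the compared groups alone, chromosome medians subtracted, and each array left out.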

Additional observations from a re-analysis of the deposited data

Results flagged for a closer look

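For 3 other pathway genes the day difference itself differed between the lines in the interaction test of limma. Eif4ebp1 fell more between days in CAG150 than in HM1, with an interaction log2 difference of -0.93 (adjusted p = 0.0027), and Slc2a1 did too, with -0.66 (adjusted p = 0.0060). Both were called under all 21 settings tried. Slc2a3 had -0.75 (adjusted p = 0.028). It lost its call without any of 8 arrays, which are HM1 replicates 2 and 3 and CAG150 replicates 2 and 3 of day 4, and HM1 replicates 1 and 2 and CAG150 replicates 2 and 3 of day 6. It was also lost with no filter, with the mean of probe sets and with the replicate number as a block, and its adjusted p reached 0.07 at most.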

How the results depend on the processing

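Of 45 differences of members, those called kept their sign under each setting tried, and 13 that were not called changed sign under at least 1. A difference large enough to be called changes sign less readily, and the members were picked with their values known. Nothing is read from this contrast. Of 945 values of members' differences under other settings, 918 moved by less than the spread between replicates and 27 by more, all 27 under another pseudocount, the mean of probe sets or the subtraction of chromosome medians. Many of the 918 could not move, so their number is no measure of stability. The filters and the replicate block leave a difference as it is. So does leaving out an array of a group that is not compared, or averaging a single probe set. Counts of members called, a summary added after the data were seen, were 3 at day 6 with chromosome medians subtracted, 3 between days in CAG150 with the mean of probe sets, and 2 in the interaction with a pseudocount of 64. Leaving out 1 array at a time, they ranged from 3 to 6 at day 4, 3 to 5 at day 6, 4 to 7 between days in HM1, 2 to 6 in CAG150 and 1 to 2 in the interaction. Counts of other pathway genes called at day 4 were 7 with no filter and 6 with chromosome medians subtracted, and in the interaction 5 with the mean of probe sets. Leaving out 1 array they ranged from 6 to 12 at day 4, 12 to 16 at day 6, 20 to 26 in HM1, 24 to 34 in CAG150 and 2 to 4 in the interaction. Samples of the same replicate number did not deviate together (correlations of -0.133 to 0.122, over 0.1 in 2 of 18 pairs). With the replicate number as a block, 10, 15, 27, 34 and 3 other pathway genes were called at day 4, at day 6, between days in HM1 and in CAG150 and in the interaction, and the interaction of Slc2a3 had an adjusted p of 0.055. Dim genes such as Igf1 are limited by signal over background.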

Other observations

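Igf2bp1 and Igf2bp3 encode proteins that bind Igf2 mRNA. Igf2bp1 fell between days, from 2502 ± 140.2 to 1929 ± 225 in HM1 (limma adjusted p = 0.0075) and from 2678 ± 149 to 2219.9 ± 60.9 in CAG150 (adjusted p = 0.037). Igf2bp3 stood between 2008 and 2258 in all 4 groups on average and was called in no comparison. Neither was called between the lines. Foxo1, Foxo3 and Foxo4 were chosen for this remark after their values were seen: Foxo3 measured 264 ± 26.9 and 212 ± 48.4 in HM1 and CAG150 at day 4 and 206 ± 22.4 and 154 ± 3.61 at day 6, and Foxo4 110.0 ± 5.72 and 97.6 ± 13.3, then 85.8 ± 12.1 and 77.2 ± 3.305, so all 3 had lower means in CAG150 at both days, although Foxo1 was the one called between the lines.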
